A study of Homo sapiens with 33 samples.

Results

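PITX1, PRRX1, SHOX2, MEOX1, MEOX2, TCF21 and TBX18 are transcription factors of the limb bud and of embryonic mesenchyme, and their mRNA and promoter chromatin were followed in human embryonic stem cells (ESCs) that lack the histone methyltransferase EZH2. The members were taken by name, and all 7 were found among the 35805 genes of the RNA-seq table and, with 32 windows around annotated start sites, among the 35683 gene names of the ChIP-seq table. All cells were flow-sorted SSEA4-positive H9 ESCs, an established line grown on irradiated mouse fibroblasts. RNA-seq had 3 libraries for each of 4 genotypes, and ChIP-seq had 1 column per genotype for H3K27me3, H3K4me3, H3K27ac, H3K4me1 and input, and 1 EZH2 column for EZH2+/+ cells. The labels list 2 libraries for each histone and input column, but the sources differ on that number, and as each column is 1 value no ChIP-seq value has a replicate error.

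The 4 genotypes were unmodified EZH2+/+ cells, EZH2-/+ cells, EZH2-/- cells, and EZH2-/- +EZH2 cells. EZH2-/- cells came from an EZH2-/+ line that was given a doxycycline-inducible EZH2 transgene on a piggyBac vector before its remaining allele was targeted with CRISPR/Cas9. As derived, EZH2-/- cells carry the transgene and were kept without doxycycline, whereas EZH2-/- +EZH2 cells are such cells kept with it. The study also made EZH2-/- lines from which the transgene was excised, and the sample titles do not say which were profiled. Each edited line was clonal, so genotype and clone cannot be told apart in any comparison with EZH2+/+ cells. EZH2 itself, in the reads-per-million unit (RPM), had 59.5 to 68.6 in EZH2+/+ libraries, 45.7 to 55.4 with 1 allele, 8.65 to 11.5 in EZH2-/- libraries and 256 to 385 once the transgene was induced, the order the labels call for.

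EZH2 is the catalytic subunit of Polycomb repressive complex 2, which trimethylates histone H3 at lysine 27. In pluripotent cells this mark covers the CpG-rich promoters of many developmental transcription factors, often together with H3K4me3, while H3K27ac and H3K4me1 are found at active or poised promoters and enhancers. PITX1 specifies hindlimb identity, PRRX1 and SHOX2 act in limb and skeletal mesenchyme, MEOX1 and MEOX2 pattern somites and muscle precursors, TCF21 is a basic helix-loop-helix factor of visceral mesenchyme and epicardium, and TBX18 is a T-box factor of somites, epicardium and urinary tract mesenchyme.

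The start-site sequences over which H3K27me3 was measured differed in base composition. RefSeq promoters on GRCh38.p14, each 300 bases from 250 before to 50 after the start, matched 6 of the 7 members, and MEOX1 was not matched. PITX1 had 35 CG dinucleotides, TBX18 21, MEOX2 16, PRRX1 11, TCF21 9 and SHOX2 6, against a median of 14 over 35116 promoters. Those of PITX1, TBX18, MEOX2 and SHOX2 are shown, because they span this range and because PITX1, SHOX2 and TBX18 gained mRNA in EZH2-/- cells and MEOX2 had none. CG dinucleotides are in capitals.
PITX1 (chr5:135034179-135034478, minus strand): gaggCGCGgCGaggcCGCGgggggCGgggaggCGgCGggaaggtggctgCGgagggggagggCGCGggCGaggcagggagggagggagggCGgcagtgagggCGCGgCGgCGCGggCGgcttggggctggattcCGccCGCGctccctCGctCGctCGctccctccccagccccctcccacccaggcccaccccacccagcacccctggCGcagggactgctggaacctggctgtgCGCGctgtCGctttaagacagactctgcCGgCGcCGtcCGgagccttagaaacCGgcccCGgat
TBX18 (chr6:84764549-84764848, minus strand): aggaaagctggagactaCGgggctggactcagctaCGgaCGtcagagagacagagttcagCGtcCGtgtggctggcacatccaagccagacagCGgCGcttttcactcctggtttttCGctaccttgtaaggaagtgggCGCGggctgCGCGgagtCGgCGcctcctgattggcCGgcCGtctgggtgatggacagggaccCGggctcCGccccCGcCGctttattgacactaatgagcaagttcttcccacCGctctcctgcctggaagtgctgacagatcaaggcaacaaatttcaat
MEOX2 (chr7:15686634-15686933, minus strand): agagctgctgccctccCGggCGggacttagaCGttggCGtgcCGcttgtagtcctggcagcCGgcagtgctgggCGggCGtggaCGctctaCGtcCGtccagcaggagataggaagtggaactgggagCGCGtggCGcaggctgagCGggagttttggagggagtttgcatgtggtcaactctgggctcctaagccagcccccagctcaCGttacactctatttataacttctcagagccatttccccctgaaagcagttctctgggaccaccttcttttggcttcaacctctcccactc
SHOX2 (chr3:158106114-158106413, minus strand): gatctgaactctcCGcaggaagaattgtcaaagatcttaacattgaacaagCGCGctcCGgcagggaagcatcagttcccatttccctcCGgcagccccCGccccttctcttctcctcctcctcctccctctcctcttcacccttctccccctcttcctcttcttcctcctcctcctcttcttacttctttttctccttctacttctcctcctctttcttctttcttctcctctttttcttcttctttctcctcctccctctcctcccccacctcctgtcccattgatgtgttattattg
The PITX1 sequence was 77.0% G or C, with more CG dinucleotides than 85.9% of promoters, whereas the SHOX2 sequence was 51.0% G or C and had more than 33.7%. Both lay inside windows with more H3K27me3 in EZH2+/+ cells than nearly all other gene names, as given next.

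To describe the chromatin these genes start from, the 5 kb window with the most H3K27me3 in EZH2+/+ cells was taken for each gene. In EZH2+/+ cells H3K27me3 was 39.4 RPM at PITX1 (5:135032257-135037257), 28.8 at PRRX1 (1:170661406-170666406), 34.7 at SHOX2 (3:158102794-158107794), 29.1 at MEOX2 (7:15684312-15689312), 21.4 at TCF21 (6:133886835-133891835) and 35.2 at TBX18 (6:84762019-84767019), in the coordinates of the deposited GRCh38 table. These 6 windows lay above 96.3% to 99.2% of all gene names, whose median was 1.96 RPM. MEOX1 (17:43659063-43664063) stood apart at 3.50 RPM, above 74.1% of gene names.

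EZH2 occupancy divided the members in the same way. It was 6.36 RPM at SHOX2, 5.08 at TBX18, 4.61 at PITX1, 3.67 at PRRX1, 2.97 at MEOX2 and 2.12 at TCF21, above 96.8% to 99.4% of gene names. At MEOX1 it was 0.290 RPM, equal to the median of all gene names. The 6 windows rich in H3K27me3 also carried H3K4me3 at 7.06 (PITX1) to 16.8 RPM (PRRX1), against a median of 3.60, and all 6 had H3K27ac of 0.725 (SHOX2) to 1.45 RPM (TCF21), below the median of 2.04. The low PITX1 value depends on the window, as PITX1 windows with 36.4 and 37.6 RPM of H3K27me3 had 15.9 and 16.1 RPM of H3K4me3. MEOX1 had the highest H3K27ac (3.11 RPM) and H3K4me1 (8.36 RPM) of the members, above 90.2% and 99.5% of gene names. Input was 1.00 to 1.60 RPM at the 7 windows. The SHOX2 window also holds the start of RSRC1 on the opposite strand, and the PITX1 window that of C5orf66, so signal at these starts cannot be told apart from that of the members.

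Loss of EZH2 was accompanied by loss of H3K27me3 at every member. In EZH2-/- cells the 7 windows had 0.752 (SHOX2) to 2.01 RPM (TBX18), and the change from EZH2+/+ on the log2(RPM + 0.1) scale was -5.35 at SHOX2, -4.55 at MEOX2, -4.43 at TCF21, -4.43 at PITX1, -4.19 at PRRX1, -4.07 at TBX18 and -1.71 at MEOX1. All 7 fell by 1 or more, as did 48.0% of gene names, and the median was -4.43 for the members and -0.94 for all gene names. H3K27me3 in EZH2-/- cells was near input of the same cells, with log2 differences from -0.80 at TCF21 to 0.78 at TBX18. Against EZH2-/- +EZH2 cells the fall was between -1.08 at MEOX1 and -5.12 at SHOX2, again 1 or more in 7 of 7 members and in 37.3% of gene names. Because windows were chosen by their H3K27me3 in EZH2+/+ cells, falls from that column include the effect of that choice, although the first listed window of each gene gave a median of -4.46.

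H3K27me3 was present in the other genotypes. In EZH2-/+ cells the 6 H3K27me3-rich windows had 22.0 (TCF21) to 45.3 RPM (PITX1), and MEOX1 had 2.71. In EZH2-/- +EZH2 cells they had 18.6 (TCF21) to 32.9 RPM (PITX1), and MEOX1 had 2.23. The median change of the 7 members from EZH2+/+ was 0.10 in EZH2-/+ and -0.20 in EZH2-/- +EZH2 cells, beside -0.15 and -0.27 over all gene names, and no member fell by 1 or more where 4.49% and 5.60% of gene names did. Without a replicate error these small differences cannot be ordered.

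**Figure D1:**
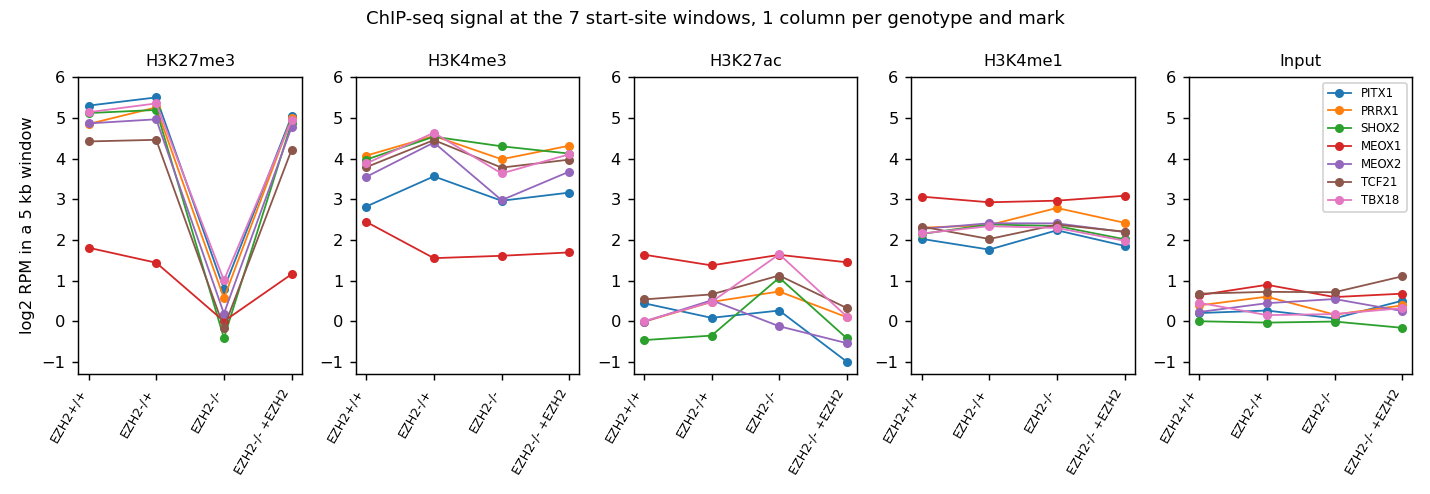
ChIP-seq signal (log2 RPM, 1 value per genotype and mark, no error available) in the 5 kb start-site window of each of the 7 genes, for H3K27me3, H3K4me3, H3K27ac, H3K4me1 and input. H3K27me3 drops at all 7 genes in EZH2-/- cells, from 21.4 to 39.4 RPM at 6 of them, MEOX1 starts lower at 3.50 RPM, and input stays between 0.894 and 2.15 RPM.

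The marks of active chromatin moved less and not at every gene. H3K27ac at SHOX2 was 2.10 RPM in EZH2-/- cells, compared with 0.725 RPM for EZH2+/+, 0.783 RPM for EZH2-/+ and 0.746 RPM for EZH2-/- +EZH2 cells, and at TBX18 it was 3.13 RPM, compared with 1.00, 1.39 and 1.08 RPM. These changes from EZH2+/+ to EZH2-/- of 1.42 and 1.55 on the log2 scale lay above 97.9% and 98.8% of gene names, and SHOX2 and TBX18 were the 2 of 7 members that rose by 1 or more, as 9.18% of gene names did. TCF21 went from 1.45 to 2.18 RPM and PRRX1 from 0.991 to 1.66 RPM. PITX1 (1.36 and 1.20 RPM), MEOX1 (3.11 and 3.10) and MEOX2 (0.991 and 0.918) were close in the 2 genotypes. Against EZH2-/- +EZH2 cells, 3 members (TBX18, SHOX2 and PITX1, the last from 0.501 RPM) were higher by 1 or more, and 3.85% of gene names were. The median H3K27ac change of members from EZH2+/+ to EZH2-/- was 0.55, beside 0.31 over all gene names, and it was 0.12 with the first listed window of each gene and 0.08 with the mean over all windows.

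H3K4me3 and H3K4me1 showed no change of 1 or more at any member between EZH2+/+ and EZH2-/- cells. H3K4me3 in EZH2-/- minus EZH2+/+ ranged from -0.82 at MEOX1 to 0.32 at SHOX2, with a median of -0.08 beside -0.17 for all gene names, and 12.6% and 2.47% of gene names fell or rose by 1 or more. The EZH2+/+ H3K4me3 column was shallow, at 3.43 M reads per library as estimated from its lowest value, against 10.3 to 17.4 M in the other genotypes. H3K4me1 changed by -0.10 at MEOX1 to 0.48 at PRRX1, where the shares over all gene names were 4.06% and 2.34%.

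Within PRRX1 and TBX18 the windows were not alike. PRRX1 had 8 listed windows, of which 4 within 1.18 kb of the marked one had H3K27me3 of 26.5 to 28.8 RPM and EZH2 of 3.67 to 3.90 RPM in EZH2+/+ cells. The other 4, at alternative starts 58.7 to 66.5 kb downstream, had 1.01 to 1.65 RPM of H3K27me3 and at most 0.0966 RPM of EZH2. TBX18 likewise had 4 windows with 26.2 to 35.2 RPM of H3K27me3, and 2 windows 22.7 and 75.8 kb downstream with 1.17 and 1.10 RPM. All 6 windows of PITX1 (36.4 to 39.4 RPM) and all 6 of SHOX2 (28.7 to 34.7 RPM) were marked, though they overlap one another and share reads.

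**Figure D2:**
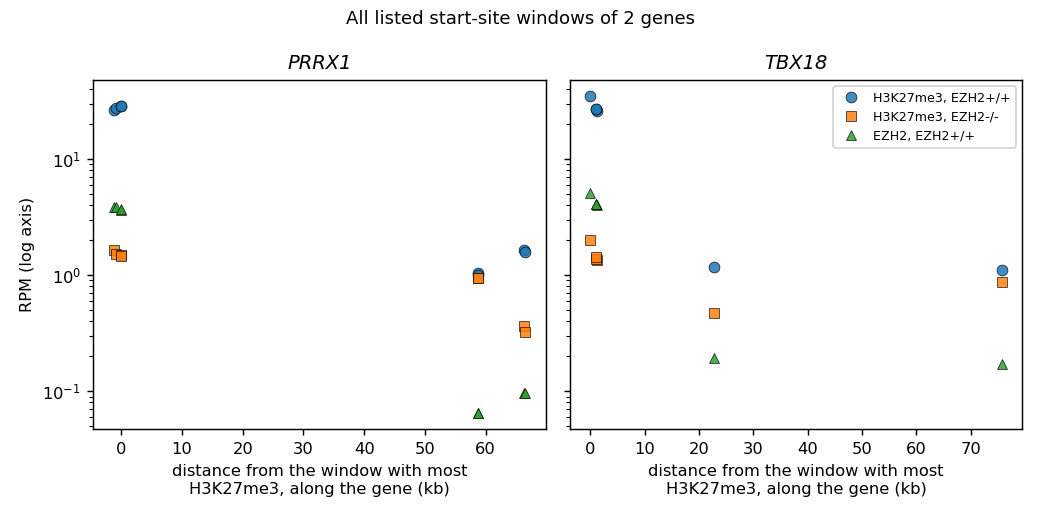
H3K27me3 in EZH2+/+ and EZH2-/- cells and EZH2 in EZH2+/+ cells (RPM, log axis) in every listed start-site window of PRRX1 and TBX18, against distance in kb along the gene from its most H3K27me3-rich window. The windows within 1.18 kb have 26.2 to 35.2 RPM of H3K27me3 in EZH2+/+ cells, and those 22.7 kb or further downstream have 1.01 to 1.65 RPM.

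RNA-seq asked which of these genes gained mRNA without EZH2. Libraries held 25 to 56.8 M reads, the total to which RPM refers, of which 16.6 to 36.6 M lay on genes, and a floor of 3 reads was 0.0528 to 0.120 RPM. Comparisons used limma on log2(RPM + 0.1) for the 20608 genes whose mean reached 0.1 RPM, and a gene was called where its p, adjusted by Benjamini-Hochberg, was under 0.05. PITX1, PRRX1, SHOX2, MEOX1, TCF21 and TBX18 passed the filter and MEOX2 did not. SHOX2, TCF21 and TBX18 passed only through their EZH2-/- libraries and MEOX1 only through its EZH2+/+ libraries. Their p-values and the counts of called members that follow therefore describe them and support nothing further. With no filter, limma gave adjusted p of 0.0018 for SHOX2, 0.013 for TBX18 and 0.051 for TCF21 in EZH2-/- against EZH2-/- +EZH2 cells. In bulk RNA, more cells that express a gene and more RNA per cell cannot be told apart.

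PITX1, the hindlimb factor, was higher in EZH2-/- libraries than in those of the other genotypes. It had 0.266, 0.431 and 0.153 RPM in EZH2+/+ libraries 1 to 3, 0.171, 0.454 and 0.213 in EZH2-/+, 1.99, 20.0 and 10.9 in EZH2-/-, and 0.257, 0.268 and 0.120 in EZH2-/- +EZH2. The lowest EZH2-/- library was above the highest of the other 9, and the 3 EZH2-/- libraries differed widely among themselves, from 113 to 1063 reads. The log2 change was 4.65 (SE 0.66, limma adjusted p = 0.0034) against EZH2-/- +EZH2 and 4.40 (SE 0.66, limma adjusted p = 0.00048) against EZH2+/+ cells. With limma voom on recovered reads the first was 5.00 with an adjusted p of 0.10. C5orf66, which overlaps PITX1 on the other strand, had 8.70 to 20.9 RPM with no such step, and counting ignored strand.

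SHOX2, which acts in the proximal limb and the sinoatrial node, was nearly silent outside EZH2-/- cells. EZH2+/+ libraries held 1, 2 and 0 reads, EZH2-/+ libraries 0, 0 and 0, and EZH2-/- +EZH2 libraries 0, 1 and 0. EZH2-/- libraries held 43, 125 and 43 reads, or 0.756, 2.35 and 1.28 RPM. The EZH2-/- libraries thus lay above all 9 others without overlap. The log2 change was 3.72 (SE 0.37, limma adjusted p = 0.00037) against EZH2-/- +EZH2 and 3.54 (SE 0.37, limma adjusted p = 5.9e-05) against EZH2+/+. Summed RPM were 63.7 times those of EZH2+/+ (exact 95% interval 21.5 to 311, counting error only) and at least 70.1 times a floor of 3 summed reads in EZH2-/+.

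TBX18 moved like SHOX2. It had 1, 8 and 9 reads in EZH2+/+, 0, 6 and 4 in EZH2-/+ and 1, 2 and 3 in EZH2-/- +EZH2 libraries. EZH2-/- libraries had 71, 126 and 59 reads, or 1.25, 2.37 and 1.75 RPM, all above the highest other library, at 0.203 RPM. The log2 change was 3.50 (SE 0.44, limma adjusted p = 0.00204) against EZH2-/- +EZH2 and 3.04 (SE 0.44, limma adjusted p = 0.000398) against EZH2+/+.

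TCF21 rose from a handful of reads. EZH2+/+ libraries had 3, 1 and 1 reads, EZH2-/+ libraries 0, 2 and 5, EZH2-/- libraries 10, 23 and 17, and EZH2-/- +EZH2 libraries 0, 2 and 1. The EZH2-/- libraries, at 0.176, 0.432 and 0.505 RPM, again lay above all others, of which the highest had 0.0890 RPM. The log2 change was 1.79 (SE 0.38, limma adjusted p = 0.024) against EZH2-/- +EZH2 and 1.71 (SE 0.38, limma adjusted p = 0.0051) against EZH2+/+. The first call was lost when any library of the pair but EZH2-/- library 1 was left out (limma adjusted p 0.062 to 0.13) and with voom (0.10). TARID, which overlaps TCF21 on the other strand, had 0, 3 and 6 reads in EZH2-/- libraries and at most 2 in any other. As counting ignored strand, reads where they overlap cannot be told apart.

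PRRX1, a homeobox factor of limb mesenchyme, was present in every genotype and varied between libraries of the same genotype. It had 1.33, 0.380 and 0.197 RPM in EZH2+/+, 0.539, 0.0216 and 0.0534 in EZH2-/+, 1.46, 1.76 and 1.16 in EZH2-/-, and 0.694, 0.0804 and 0.200 in EZH2-/- +EZH2 libraries. Library 1 was the highest of its genotype in EZH2+/+, EZH2-/+ and EZH2-/- +EZH2 cells. EZH2-/- libraries did not overlap those of EZH2-/- +EZH2 cells, but EZH2+/+ library 1 lay inside their range. The log2 change of 2.14 (SE 0.71) against EZH2-/- +EZH2 did not pass the test (limma adjusted p = 0.14), nor did 1.39 (SE 0.71) against EZH2+/+ (limma adjusted p = 0.16). With the library number as a block both passed (limma adjusted p = 0.017 and 0.028). EZH2-/- was higher in 3 of 3 same-numbered pairs in both comparisons, by only 0.12 in pair 1 against EZH2+/+.

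MEOX1, a somite factor, was highest in EZH2+/+ cells. It had 0.622, 1.01 and 0.262 RPM in EZH2+/+ libraries (28, 40 and 12 reads), and 0.123, 0.206 and 0.178 RPM in EZH2-/- libraries (7, 11 and 6 reads). EZH2-/+ libraries held 1, 2 and 0 reads, and EZH2-/- +EZH2 libraries 0, 2 and 0. All 3 edited genotypes were thus below EZH2+/+ without overlap, as were 11.9% (EZH2-/+), 29.2% (EZH2-/-) and 22.4% (EZH2-/- +EZH2) of tested genes, and EZH2-/- was above the other 2. The log2 change from EZH2+/+ was -1.31 (SE 0.40, limma adjusted p = 0.025) in EZH2-/-, -2.45 (SE 0.40, limma adjusted p = 0.012) in EZH2-/+ and -2.52 (SE 0.40, limma adjusted p = 0.0026) in EZH2-/- +EZH2 cells. Summed RPM in EZH2+/+ were 29.3 times those in EZH2-/+ (exact 95% interval 9.69 to 145). The call in EZH2-/+ was lost without EZH2+/+ library 1 or 2 (limma adjusted p = 0.056 and 0.068), and that in EZH2-/- without any library of the pair but EZH2+/+ library 3 (0.052 to 0.12). EZH2-/- against EZH2-/- +EZH2 gave 1.21 (SE 0.40, limma adjusted p = 0.13), or 0.046 when limma blocked on library number.

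MEOX2, its paralog, had 0 reads in all 12 libraries and was not tested. A count of 0 allows up to 3 reads, or 0.0528 to 0.120 RPM per library, so that expression was not detectable at this depth. Its H3K27me3, which is given above, had fallen from 29.1 to 1.14 RPM in EZH2-/- cells.

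**Figure D3:**
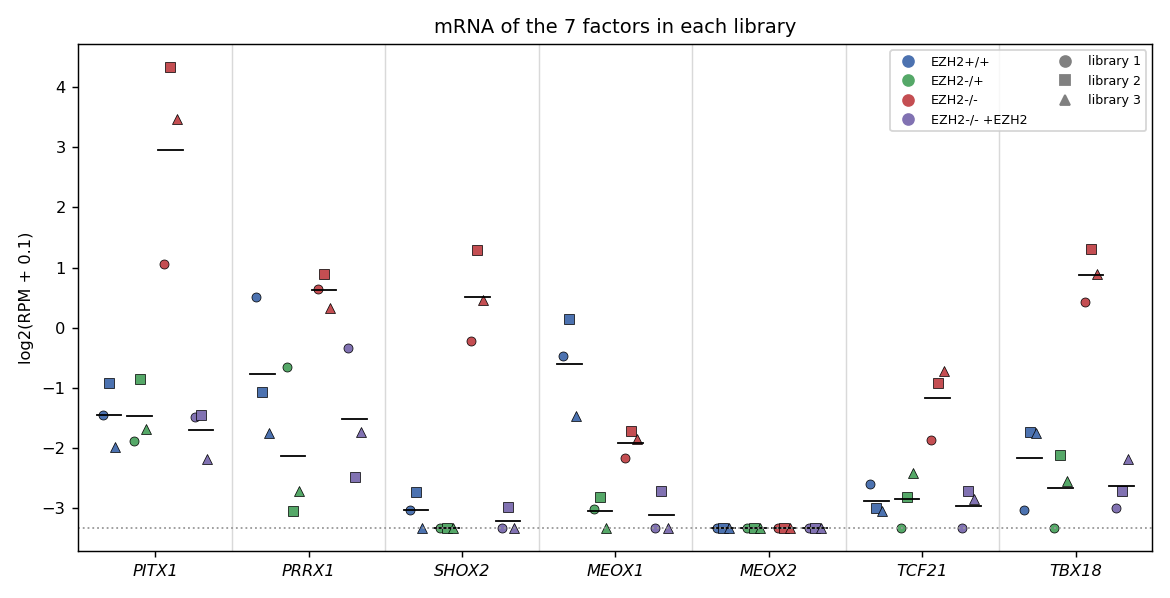
mRNA of the 7 genes as log2(RPM + 0.1) in 12 RNA-seq libraries, coloured by genotype and shaped by library number, with a line at each genotype's mean and a dotted line at 0 reads. PITX1, SHOX2, TCF21 and TBX18 are higher in all 3 EZH2-/- libraries than in the other 9, MEOX1 is highest in EZH2+/+, and MEOX2 lies on the line of 0 reads.

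Counted together, 4 of the 6 tested members were called higher by limma and 0 lower (0 also at an unadjusted p under 0.05, which 6% of genes passed downward) in EZH2-/- than in EZH2-/- +EZH2 cells, where 2.63% of all tested genes were called higher and 0.524% lower. The EZH2-/- libraries lay above those of EZH2-/- +EZH2 cells without overlap for 6 members, and for 13.5% of tested genes. Against EZH2+/+ cells, 4 were called higher and 1 (MEOX1) lower, with 12.6% and 18.8% of tested genes called in these directions, and the same 5 did not overlap, as was so for 20.6% and 29.2% of genes. With the library number as a block, which pairs the libraries, limma called 6 of 6 higher against EZH2-/- +EZH2 cells (6.19% of all genes), and 5 higher and 1 lower against EZH2+/+ cells (17.3% and 28.0%). With limma voom on recovered reads 2 of 6 were called higher against EZH2-/- +EZH2 cells (1.15% of all genes). The median log2 change over all tested genes was 0.02 in the first comparison and -0.13 in the second. MEOX1 was the 1 member called in EZH2-/+ against EZH2+/+ cells, where 0.966% of genes were called lower and 0.180% higher, and also in EZH2-/- +EZH2 against EZH2+/+ cells, where the shares were 6.90% and 3.40%. The other 5 had log2 changes of -1.37 (PRRX1) to 0.03 (TCF21) in the former and -0.75 (PRRX1) to -0.08 (TCF21) in the latter, none past the limma test. The comparisons share libraries and are not independent of each other.

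**Figure D4:**
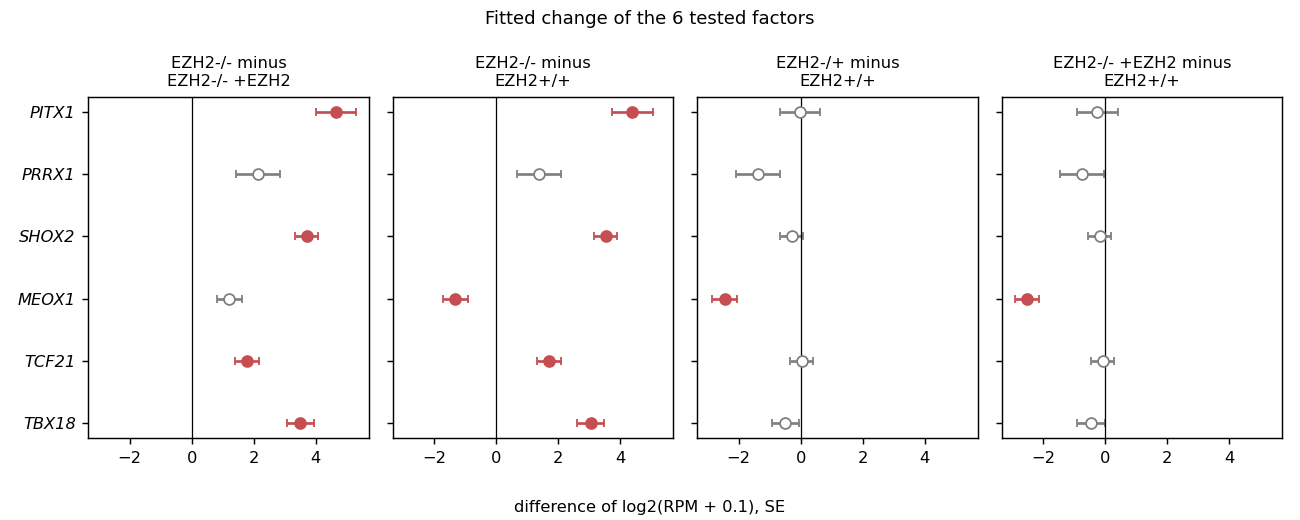
Fitted difference of log2(RPM + 0.1) with its SE for the 6 tested genes in 4 comparisons of 3 libraries with 3; filled points passed limma at an adjusted p under 0.05. PITX1, SHOX2, TCF21 and TBX18 lie to the right in both comparisons of EZH2-/- cells (1.71 to 4.65), and MEOX1 lies to the left in all 3 comparisons with EZH2+/+ cells (-1.31 to -2.52). SHOX2, TCF21 and TBX18 passed the filter only through EZH2-/- libraries and MEOX1 only through EZH2+/+ libraries, so their filled points are descriptive.

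The genes whose pattern over the 12 libraries was most like each member were, for PITX1, TEX101 (Pearson r = 0.986), HOXA13 (0.984) and MSGN1 (0.981), and for SHOX2, HOXD13 (0.993), LINC00540 (0.991) and TDRD1 (0.988). For TBX18 they were FN1, the fibronectin gene (0.976), TWIST1 (0.967) and GLIS1 (0.964), and for TCF21 they were HOXB7 (0.960), RP1-4G17.5 (0.950) and TEX101 (0.949). PRRX1 was most like EVX1 (0.935), TMEM164 (0.911) and KALRN (0.904), and MEOX1 most like PROC (0.975), AFF3 (0.951) and LGI1 (0.949). Among the members themselves PITX1, SHOX2, TCF21 and TBX18 had r of 0.894 to 0.975 with each other, whereas MEOX1 had r of 0.169 to 0.402 with the other 5. These values describe 12 libraries that share 4 genotypes, and no test was made.

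Close relatives of the members moved in part. Of all tested genes 2.63% were called higher against EZH2-/- +EZH2 cells and 12.6% against EZH2+/+ cells. Of 10 paralogs 8 were tested, and in EZH2-/- against EZH2-/- +EZH2 cells 2 were called higher, TBX15 (log2 change 4.00, SE 0.28, limma adjusted p = 1.7e-05), a T-box relative of TBX18, and MSC (1.23, SE 0.26, limma adjusted p = 0.023), a relative of TCF21. TBX15 passed the filter only through its EZH2-/- libraries, so its call and its place in the count describe it and support nothing further. TBX22, another T-box gene, changed by 2.17 in this comparison without passing the limma test and by 3.36 against EZH2+/+ cells, where it was called, and the difference between the comparisons was not tested. The paralogs' median change was 1.14 in the first comparison.

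Of 39 other limb and mesenchyme transcription factors 33 were tested, and 15 were called higher by limma and 0 lower (22 and 0 at an unadjusted p under 0.05) in EZH2-/- than in EZH2-/- +EZH2 cells, with a median change of 1.60. The largest changes were in TWIST1, a mesenchymal basic helix-loop-helix factor (4.43, SE 0.31), FOXC1, a forkhead factor (4.14, SE 0.31), TBX4, the hindlimb T-box factor (4.06, SE 0.75), and HAND2, a factor of posterior limb bud and heart (3.96, SE 0.77). TBX4 had 0.264 to 6.10 RPM in EZH2-/- libraries and at most 1 read in any other. TBX4 and HAND2 passed the filter only through their EZH2-/- libraries, as did others of the 15, ISL1 among them. Their calls and the counts of called genes in this list therefore describe them and support nothing further. Against EZH2+/+ cells 15 were called higher and 2 lower, the latter being PAX3 (-2.61) and SOX9 (-0.67). Of all tested genes 12.6% and 18.8% were called in these directions, and 2.63% higher and 0.524% lower against EZH2-/- +EZH2 cells. In ChIP-seq this list had a median of 40.3 RPM of H3K27me3 in EZH2+/+ cells and a median change of -3.96 in EZH2-/- cells, near the -4.43 of the 7 members.

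Of 20 limb and mesenchyme signals and receptors 19 were tested, and 2 were called higher against EZH2-/- +EZH2 cells, the ligands BMP2 (1.81, SE 0.40) and BMP4 (1.42, SE 0.33). Against EZH2+/+ cells 5 were higher, among them FGF8 (3.58) and BMP4 (3.11), and 2 receptors, FGFR1 (-1.07) and FGFR2 (-0.78), were lower. Over all tested genes 12.6% and 18.8% were called in these directions, and 2.63% higher against EZH2-/- +EZH2 cells. Of 10 genes reported elsewhere as targets of the members, 5 were called higher against EZH2-/- +EZH2 and 7 against EZH2+/+ cells. Besides TBX4 these included ISL1 (2.98, SE 0.49), the cell-cycle inhibitor CDKN2A (2.60, SE 0.32) and POMC, a pituitary hormone precursor (2.44, SE 0.38), against EZH2-/- +EZH2 cells. TBX4 and ISL1 passed the filter only through their EZH2-/- libraries, so their calls and these counts describe them and support nothing further. The 10 genes themselves had a median of 21.7 RPM of H3K27me3 in EZH2+/+ cells and a median change of -4.03 in EZH2-/- cells. Whether the members act on them here was not tested.

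Markers of other cells moved beside these genes. Of all tested genes 2.63% were called higher and 0.524% lower against EZH2-/- +EZH2 cells, and 12.6% and 18.8% against EZH2+/+ cells. Pluripotency genes summed to 3592 to 4065 RPM in EZH2-/- and 3485 to 4035 RPM in EZH2-/- +EZH2 libraries, and 0 of 9 were called between them by limma (1 lower at an unadjusted p under 0.05), though against EZH2+/+ cells (2337 to 2993 RPM) 6 were higher and SOX2 was lower. Of 12 fibroblast genes 10 were tested and 4 were called higher against EZH2-/- +EZH2 cells, COL3A1, LUM, COL6A3 and COL5A1, while the other 6 were not called. Against EZH2+/+ cells 5 were higher and 1 lower, COL1A2 (log2 change -1.08, SE 0.23). LUM passed the filter only through its EZH2-/- libraries, so its calls and its place in these counts describe it and support nothing further. The summed level of the 12 was 507 to 1007 RPM in EZH2-/- libraries, against 507 to 545 RPM for EZH2+/+, 416 to 475 RPM for EZH2-/+ and 406 to 526 RPM for EZH2-/- +EZH2 libraries. Much of that sum was thus already there in EZH2+/+ cells. Among the genes called higher, COL3A1 had 4.70, 109 and 47.8 RPM in EZH2-/- libraries 1 to 3, COL6A3 had 10.2, 57.8 and 30.6 RPM, and LUM had 0.369, 6.25 and 3.15 RPM. PITX1, SHOX2, MEOX1 and TBX18 were likewise lowest in library 1 and highest in library 2 of EZH2-/- cells, whereas PRRX1 was lowest in library 3 and TCF21 highest there. DCN reached at most 0.169 RPM and FAP had 0 reads in all 12 libraries, and the part of such cells in the members' change was not tested.

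The remaining marker lists were small, and the shares of all tested genes called are 2.63% higher and 0.524% lower against EZH2-/- +EZH2 cells, and 12.6% and 18.8% against EZH2+/+ cells. Against EZH2-/- +EZH2 cells 1 of 6 primitive streak and early mesoderm genes was called higher (MSGN1, 3.52, SE 0.54), 2 of 5 endoderm genes (SOX17 and CXCR4) and 1 of 4 endothelial genes (CDH5), with 0 of 3 neuroectoderm genes and 0 of 1 skeletal muscle gene tested called by limma (1 and 0 at an unadjusted p under 0.05). Against EZH2+/+ cells the counts higher were 2, 3 and 2 for the first 3 lists, and 2 neuroectoderm genes, 1 muscle gene and 1 endothelial gene were lower. MSGN1 passed the filter only through its EZH2-/- libraries, so its calls and the primitive streak counts describe it and support nothing further. Primitive streak genes summed to 122 to 168 RPM in EZH2-/- and 18.0 to 119 RPM in EZH2+/+ and EZH2-/- +EZH2 libraries, and their part in the members' change was not tested.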

How the data were processed

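Deposited tables were matched to genotype, mark and library number through column names and sample descriptions, and no column was left unmatched. The authors trimmed reads with Trim Galore 0.4.0, aligned RNA-seq reads to GRCh38 with TopHat2 2.0.12 and Ensembl gene models, counted them per gene without strand in SeqMonk, tested raw counts with DESeq2, and deposited log2 RPM. For ChIP-seq the authors aligned reads with Bowtie2 2.2.5, extended them, counted those not duplicated in 5 kb windows centred on start sites, and again deposited log2 RPM, in 1 column per genotype and mark. The labels list 2 libraries for each of these columns (EZH2 apart) whereas the paper describes averages of 3 replicates, which was not resolved. ChIP-seq depth, as reads per library, was estimated from the lowest value of each column. A gene without a read was deposited as 0.9 of 1 read and was set to 0 RPM here. Of RNA values under 1000 reads, 100% came to whole reads (tolerance 0.02), so reads were recovered. Values were returned to the linear scale, and differences were taken on log2(RPM + 0.1), which understates the change of low genes.

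The 20608 of 35805 genes whose mean reached 0.1 RPM were tested with limma 3.58.1 (lmFit, eBayes with trend) in R 4.3.3 over all 12 RNA libraries, with Benjamini-Hochberg adjustment over all of them. The fit had no block. Same-numbered libraries deviated together in every pair of genotypes (correlation 0.107 to 0.560, mean 0.333). Different numbers had a mean of -0.159 and reached 0.245. Their negative mean is no separate evidence, as each genotype was centred on its own mean. The study names no pairing, so the library number was taken to pair libraries from these same data. A blocked fit is given where it changes a call. ChIP-seq differences have no test. Intervals of read ratios are exact 95% intervals, and they and the floor of 3 reads cover counting error only. The study gives its RNA libraries as biological replicates of 1 line per genotype, so p-values measure the spread between cultures and not between lines.

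The 7 genes and the lists of related genes and markers were chosen with earlier results of these data known. Named beside the members are EZH2, the 3 genes most alike in pattern to each, and, from each list, at most the 4 called genes of largest change, or all where 5 or fewer are counted. The values of 1 listed gene are not reported here.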

Additional observations from a re-analysis of the deposited data

How the results depend on the processing

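Of 316 values for single members under alternative settings, 280 kept their direction and their side of the threshold, 21 lost and 3 gained a limma call, and 12 changed sign. With a replicate block (library number) the called members went from 4 to 6 in EZH2-/- minus EZH2-/- +EZH2 and from 5 to 6 in EZH2-/- minus EZH2+/+, through PRRX1 and MEOX1, and no other of 24 calls changed. A filter of a mean of at least 1 RPM, which leaves PITX1 alone tested, gave 1, 1, 0 and 0 called members in EZH2-/- minus EZH2-/- +EZH2, EZH2-/- minus EZH2+/+, EZH2-/+ minus EZH2+/+ and EZH2-/- +EZH2 minus EZH2+/+, in place of 4, 5, 1 and 1. limma voom on recovered reads called 2 in the first (SHOX2 and TBX18); the cause was not tested. For EZH2-/+ the count was 0 with no filter on low values and 0 with only the 2 genotypes compared. Leaving out 1 library at a time gave 3 to 4, 4 to 5, 0 to 1 (0 without EZH2+/+ library 1 or 2) and 1 to 1. TCF21 in the first comparison was also lost with a pseudocount of 0.02 RPM (limma adjusted p = 0.063), with no filter (0.051) and with only the 2 genotypes (0.053), and MEOX1 in the second with the lower pseudocount (0.10) and with voom (0.054).

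Signs changed only in small, uncalled log2 values. PITX1 in EZH2-/+ minus EZH2+/+ went from -0.02 to 0.049 after median-ratio rescaling and from -0.33 to 0.25 without 1 library, and TCF21 there from 0.03 to -0.085 with a pseudocount of 0.02 RPM, to -0.12 with voom, and to between -0.19 and 0.27 without 1 library. In EZH2-/- +EZH2 minus EZH2+/+, leaving out 1 library gave -0.52 to 0.011 for PITX1 and -0.21 to 0.10 for TCF21. The median H3K27me3 change of the members in EZH2-/- minus EZH2+/+ was -3.59 with a pseudocount of 1 RPM and -3.49 centred on all gene names, and in EZH2-/- +EZH2 minus EZH2+/+ it was 0.068 when centred. Most members have fewer than 1 RPM outside EZH2-/- cells, so a fold there rests on few reads, and ChIP-seq differences have no replicate error.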
